A study of Mus musculus with 16 samples.

Results

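The 45 array probes described here were called present on nearly every array of lung from mice breathing room air and on almost none from mice exposed to cigarette smoke. A probe was taken if its deposited detection p-value was under 0.05 on at least 5 of 6 air arrays and on at most 1 of 10 smoke arrays. This left 45 of the 25697 probes on the array, and 41 of them carry a gene symbol, each a different gene. Whole-lung RNA was measured in wild-type C57BL/6 mice and in Mmp28-/- mice on the same background, which lack a secreted matrix metalloproteinase. Each genotype had 3 air arrays and 5 smoke arrays. Smoke came from 3R4F reference cigarettes, given for 3 months from 7 to 9 weeks of age, in sessions of 3 hours on 5 days per week, at 250 tpm/m3. Air mice sat in a similar chamber in the same facility, and all mice were matched for age and gender per the labels. The labels name no promoter or Cre for the mutant line.

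An array probe is called present when its brightness exceeds that of nearly all negative control probes on the same array. RNA close to that limit can cross it in either direction through small changes in its own level or in the brightness of the controls. Long smoke exposure is known to injure the airway lining, recruit immune cells and wear away the alveolar walls, so whole-lung RNA can differ both in cell makeup and in RNA per cell. In these homogenates, fewer cells of a type and less RNA per cell cannot be told apart.

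The name "switched off" fitted few of the 45 probes. The mean deposited intensity in air was within 1.1 times the detection limit for 35 probes and within 1.2 times for 42. The other 3 were Pisd-ps2, Bmerb1 and Ern2. The detection limit itself was higher on the smoke arrays, at 136 to 151 intensity units against 123 to 139 on the air arrays. The median intensity of the 45 probes was 130 to 148 units on the air arrays and 128 to 143 on the smoke arrays, ranges that overlap. The smoke arrays were brighter over all probes too, with medians of 150 to 166 units against 133 to 153 in air. Set against each array's own limit, the median of the 45 was 1.01 to 1.09 times it in air and 0.936 to 0.962 in smoke. That separation follows from the rule. For 8 of the 45, the mean deposited intensity was higher in smoke than in air. Most of these probes are therefore described below as dim probes that crossed a detection limit.

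**Figure D1:**
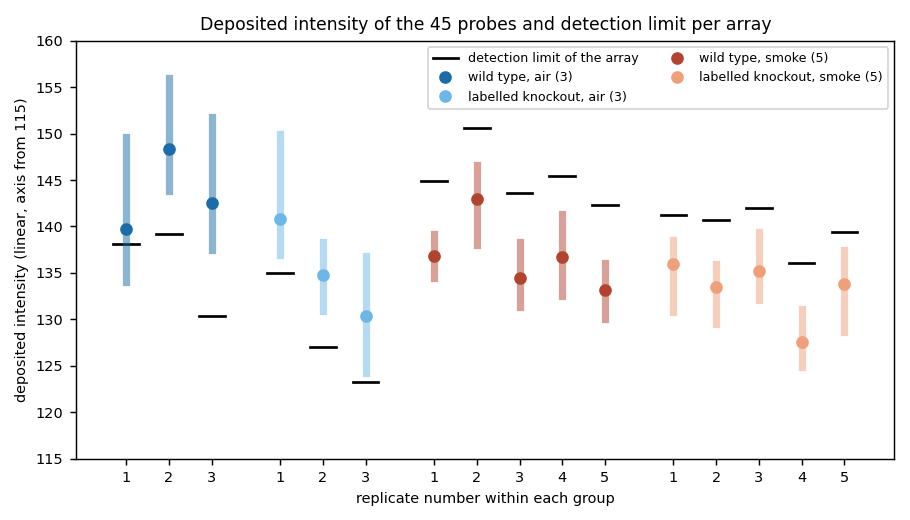
Deposited, unnormalized intensity of the 45 probes on each array (y axis, linear units, not starting at 0) by replicate number within the 4 groups (x axis). Points are medians, bars run from the lower to the upper quartile of the 45 probes, and black lines mark each array's detection limit, which sits at 123 to 139 units in air and 136 to 151 in smoke.

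The promoters of 3 genes are shown, chosen after the values below were seen. Idi2 was more than 2-fold lower on its only tested probe, and Cux1 and Heatr1 were lower on several probes each. The stretches run from 250 bases before to 50 after the start, from RefSeq on GRCm38.p6, and 34 of the 41 genes had such an entry. Capitals mark the letters GCGTG or, on the other strand, CACGC, the core bound by the aryl hydrocarbon receptor, a sensor of polycyclic compounds such as those in smoke. Idi2 is at chr13:8952613-8952912, forward strand, Cux1 at chr5:136565932-136566231, reverse strand, and Heatr1 at chr13:12395125-12395424, forward strand.
Idi2: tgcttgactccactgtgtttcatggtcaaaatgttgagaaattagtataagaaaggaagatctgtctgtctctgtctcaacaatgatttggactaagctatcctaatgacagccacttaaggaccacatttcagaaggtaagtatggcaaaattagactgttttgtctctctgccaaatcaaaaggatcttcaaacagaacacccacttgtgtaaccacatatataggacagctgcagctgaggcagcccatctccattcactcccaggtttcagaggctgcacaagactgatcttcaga
Cux1: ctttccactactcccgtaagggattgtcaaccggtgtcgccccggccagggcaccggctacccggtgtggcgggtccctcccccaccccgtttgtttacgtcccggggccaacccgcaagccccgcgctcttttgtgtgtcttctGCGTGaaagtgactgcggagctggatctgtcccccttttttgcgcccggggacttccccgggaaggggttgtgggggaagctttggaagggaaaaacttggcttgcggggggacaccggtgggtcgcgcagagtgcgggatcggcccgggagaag
Heatr1: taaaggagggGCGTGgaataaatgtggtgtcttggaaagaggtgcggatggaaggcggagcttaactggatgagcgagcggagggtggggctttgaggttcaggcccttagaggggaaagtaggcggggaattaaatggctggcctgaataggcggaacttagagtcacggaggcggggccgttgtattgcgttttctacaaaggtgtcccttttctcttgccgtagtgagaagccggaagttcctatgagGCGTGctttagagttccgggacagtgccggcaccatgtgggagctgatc
The core occurred 0 times in the Idi2 stretch, 1 time in Cux1 and 2 times in Heatr1. Among the 43 promoter entries of the 34 genes, 21 held it on either strand (48.8%), against 32.4% of all 32851 promoters. The letters CACGTG, the E-box that circadian and MYC factors bind, were in 3 of the 43 (6.98%) against 7.15% of all. The motifs do not overlap each other. These are counts of letters and not of bound sites. Some genes have more than 1 entry and base composition was not matched, so the shares are compared no further.

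Levels are given as log2 of the background-corrected, quantile-normalized intensity, on which the detection limit lay between 4.80 and 5.05. On this scale the limit was 4.85 to 5.05 on the air arrays and 4.80 to 4.94 on the smoke arrays. Each array detected 13971 (54.4%) to 15238 (59.3%) of its probes, and 16126 probes detected on at least 3 arrays entered the tests, all 45 among them by construction. Lung identity was clear, as all 8 genes of a surfactant-cell list were detected on every array. Replicate 1 of wild type in air stood apart, with the lowest number of detected probes and a correlation with its own group of 0.959 against 0.972 to 0.987 on the others (Spearman, on tested probes). It was the air array that missed 16 of the 45 probes, and without it the rule took 81 probes. On it 212 tested probes read at least 2-fold above every other array, against 0 to 13 on each of the others. Replicate 3 of the labelled knockout in air missed 10 of the 45. The first Mmp28 probe (ILMN_1260453) was not detected on any array. The second (ILMN_3159029) was detected on all 16. It read 5.71, 6.04 and 5.72 in wild-type air, 6.05, 5.43 and 5.62 in Mmp28-/- air, 5.67, 6.06, 6.49, 6.04 and 5.71 in wild-type smoke and 6.20, 5.70, 5.39, 5.54 and 5.82 in Mmp28-/- smoke. The groups overlapped, with knockout minus wild type at -0.12 in air and -0.26 in smoke, neither past the threshold. Where that probe lies relative to the deleted part is not given in the sources used here, so it checks nothing, and the mutant mice are called labelled knockouts.

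The 45 probes had mean air levels of 4.94 to 7.31 (median 5.20) and mean smoke levels of 4.42 to 4.78 (median 4.62). The median tested probe read 7.41 in air, and 17.1% of tested probes were as dim as the median of the 45 or dimmer. Smoke was lower than air by 0.29 to 2.70 log2 units, with a median of 0.62 (1.54-fold), against a median difference near 0 (-0.01) over all tested probes. Since these values chose the probes, they describe them and support nothing. A difference of at least 2-fold was found for 5 probes and of at least 1.5-fold for 27. For 20 probes every air array read above every smoke array, as did 4.77% of all tested probes. The rule's own counts were 9 probes detected on 6 air and 0 smoke arrays, 6 on 6 and 1, 14 on 5 and 0, and 16 on 5 and 1.

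**Figure D2:**
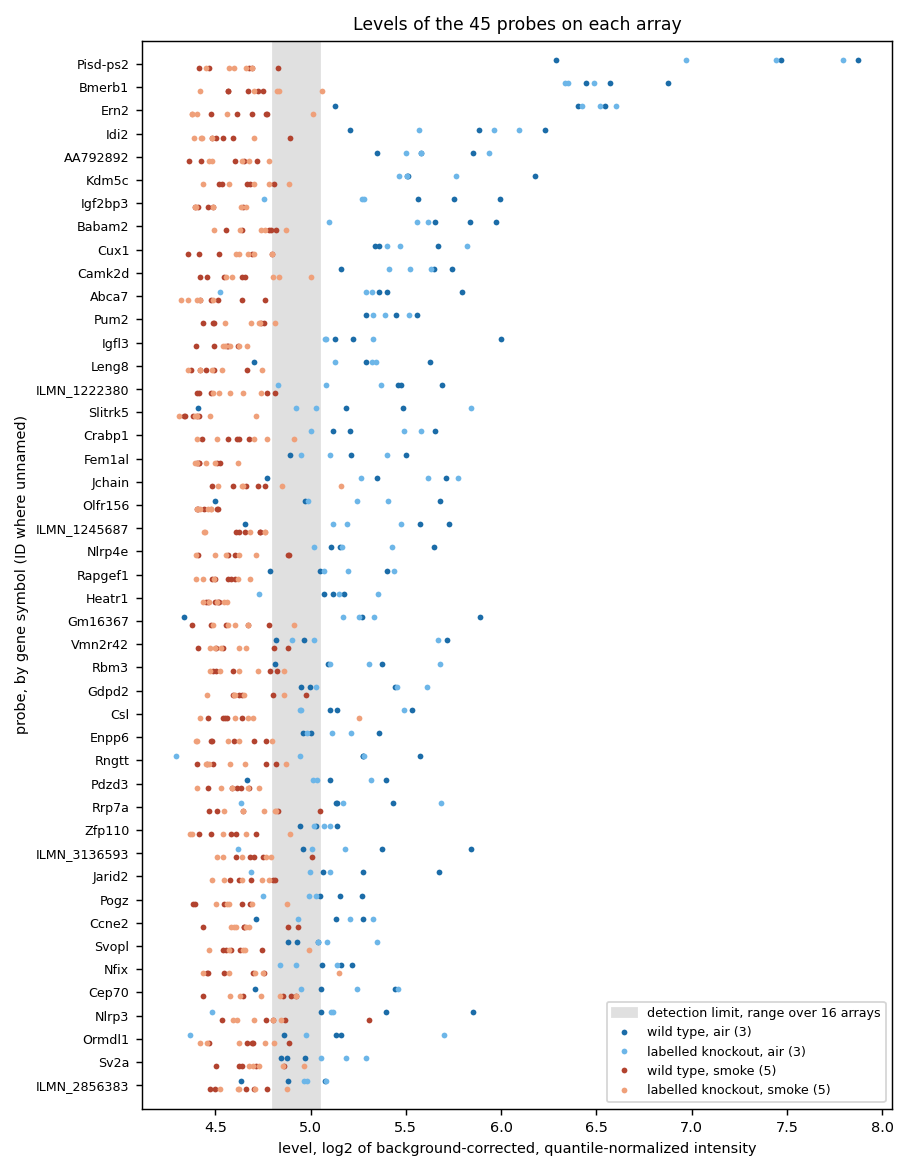
Level of each of the 45 probes (rows, in order of the size of the air minus smoke difference) on every array (x axis, log2). Each point is 1 array, and the grey band is the range of the detection limit, 4.80 to 5.05. The top 3 rows stand well clear of the band in air, apart from 1 Ern2 array at 5.13, while the air points of the lower rows lie mostly within or close to it.

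Pisd-ps2 (ILMN_2951310) had the largest difference. It is a transcribed pseudogene copy of Pisd, the mitochondrial enzyme that makes phosphatidylethanolamine. In wild type it read 6.29, 7.47 and 7.87 in air and 4.68, 4.47, 4.69, 4.83 and 4.41 in smoke. In the labelled knockout it read 6.97, 7.79 and 7.44 in air and 4.66, 4.45, 4.57, 4.60 and 4.69 in smoke. All 6 air arrays were far above the limit and all 10 smoke arrays below their own limits, with no overlap. Because it was undetected in smoke, only a bound on the difference of the means is given. It is 4.94-fold in wild type and 5.81-fold in the labelled knockout. These bounds set the mean in air against the lowest signal that counts as detected. They are point values on the normalized scale, leave out the spread between arrays and depend on how background was handled. On the deposited scale the mean intensity was 256 in air and 135 in smoke. The parent gene did not share the pattern: each of its 3 probes was detected on all 10 smoke arrays, none passed in either genotype, with differences of 0.00 to 0.48 in wild type and 0.11 to 0.27 in the labelled knockout. Pisd has several near-identical copies, so which copy bound the Pisd-ps2 probe is uncertain.

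Bmerb1 (ILMN_2636325), a protein of the family whose bMERB domain binds Rab GTPases, came next. Wild-type arrays read 6.44, 6.57 and 6.87 in air and 4.57, 4.67, 4.57, 4.75 and 4.72 in smoke. Labelled knockout arrays read 6.35, 6.49 and 6.34 in air and 4.82, 4.42, 4.70, 4.84 and 5.06 in smoke, where the last array was called detected. The groups were separate in both genotypes, and the bound on the wild-type difference is 3.31-fold.

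Ern2 (ILMN_1214511) encodes IRE1-beta, the endoplasmic reticulum stress sensor of mucus-making epithelium. Wild type read 5.13, 6.40 and 6.54 in air and 4.61, 4.77, 4.48, 4.77 and 4.69 in smoke. The labelled knockout read 6.60, 6.42 and 6.52 in air and 4.56, 4.40, 5.01, 4.38 and 4.38 in smoke. Replicate 1 of wild type in air lay far below the other 5 air arrays, and replicate 3 of the labelled knockout in smoke was detected. The bound on the wild-type difference is 2.17-fold. The Ern1 probe, for the IRE1 found in most cells, was not detected on any array.

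Idi2 (ILMN_1216803), an isopentenyl diphosphate isomerase of the isoprenoid pathway whose promoter is printed above, was undetected on all 10 smoke arrays. It read 5.21, 5.88 and 6.23 in wild type and 5.57, 5.96 and 6.09 in the labelled knockout in air. In smoke it read 4.59, 4.50, 4.54, 4.48 and 4.89 in wild type and 4.48, 4.43, 4.43, 4.70 and 4.39 in the labelled knockout. Every air array read above every smoke array, and the bounds were 1.83-fold in wild type and 2.01-fold in the labelled knockout. Idi1, the related isomerase, was detected on all 16 arrays, with differences of -0.11 and -0.48 that did not pass. AA792892 (ILMN_2984591) was the fifth probe with a difference of at least 2-fold, at 5.35 to 5.94 in air and 4.36 to 4.78 in smoke.

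Of the 8 probes for lipid handling and metabolism, which include Pisd-ps2 and Idi2, 4 had no overlap between air and smoke, where 20 of the 45 and 4.77% of all tested probes had none. Abca7 (ILMN_2716039), a lipid transporter of the ABC family, read 5.80, 5.36 and 5.40 in wild-type air and 5.32, 5.29 and 4.53 in labelled knockout air. Its 10 smoke arrays read 4.32 to 4.76, so the last of these air arrays overlapped them. Crabp1 (ILMN_1227671), which carries retinoic acid in the cytoplasm, read 5.00 to 5.65 in air and 4.40 to 4.92 in smoke. Gdpd2, Enpp6, Csl and Ormdl1 were lower by 0.38 to 0.57. Ormdl1, a regulator of sphingolipid synthesis, was among the 5 members closest to the edge of the rule.

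The 6 probes for chromatin and transcription were Kdm5c, Cux1, Jarid2, Pogz, Nfix and Zfp110, lower by 0.40 to 0.99. Kdm5c (ILMN_1253604) is the X-linked demethylase of histone H3 lysine 4. It read 5.51, 5.51 and 6.18 in wild-type air and 5.46, 5.76 and 5.51 in labelled knockout air, against 4.44 to 4.89 on the smoke arrays, with no overlap. Xist, also X-linked, was detected on every array, the Y-linked Kdm5d and Eif2s3y on none, and the Y-linked Uty lay near the limit at 4.48 to 5.64. Xist read 9.37 to 10.4 in air and 7.30 to 9.19 in smoke (ILMN_3022688), and its part in the Kdm5c values was not tested. Cux1 (ILMN_1240019), a homeobox transcription factor, read 5.34 to 5.82 in air and 4.36 to 4.80 in smoke, again with no overlap.

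The 6 probes for RNA handling and ribosome production were lower by 0.49 to 0.94. Igf2bp3 (ILMN_1218913), an RNA-binding protein known from embryos and tumours, read 5.56, 5.75 and 5.99 in wild-type air and 5.27, 5.28 and 4.75 in labelled knockout air. All 10 smoke arrays read 4.39 to 4.66, so no arrays overlapped. Pum2 (ILMN_1228635), a repressor that binds untranslated regions of mRNAs, read 5.29 to 5.56 in air and 4.44 to 4.81 in smoke. Heatr1 (ILMN_2733973), needed for ribosomal RNA production, read 4.73 to 5.36 in air and 4.43 to 4.56 in smoke. Rbm3, the cold-inducible RNA-binding protein, Rngtt, the mRNA capping enzyme, and Rrp7a, a ribosomal RNA processing factor, overlapped between air and smoke.

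Among the 7 probes for signalling, stress and cell division, which include Ern2 and Bmerb1, 5 had no overlap, beside 20 of the 45 and 4.77% of all tested probes. Babam2 (ILMN_2708811), a subunit of BRCA1-associated deubiquitinating complexes, read 5.10 to 5.97 in air and 4.49 to 4.87 in smoke. Camk2d (ILMN_3070701), a calcium and calmodulin-dependent kinase, read 5.16 to 5.74 in air and 4.42 to 5.00 in smoke. Rapgef1 (ILMN_1226718), an activator of the small GTPase Rap1, read 4.79 to 5.44 in air and 4.40 to 4.68 in smoke. The cyclin Ccne2 and the centrosomal Cep70 overlapped.

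The 3 immune probes were Jchain, Nlrp3 and Nlrp4e. Jchain (ILMN_1221256), the chain that joins IgA and IgM units, read 4.77, 5.35 and 5.71 in wild-type air and 5.62, 5.77 and 5.26 in labelled knockout air. Its smoke arrays read 4.48 to 4.76 in wild type and 4.51 to 5.16 in the labelled knockout, so air and smoke were separate within each genotype and overlapped only between labelled knockout smoke and wild-type air. The other 15 tested probes of a list of B cell and plasma cell genes were detected on all 16 arrays. In wild type 14 of the 15 were lower in sign, from -0.69 for Ms4a1, the B cell antigen CD20, to 0.04, and in the labelled knockout 9 of 15, from -0.42 to 0.22. None of the 15 passed in either genotype, with Ms4a1 closest at an adjusted p of 0.060 in wild type (limma). The median of the list, Jchain included, was -0.33 and -0.02, and its part in the Jchain values was not tested. Nlrp3, the sensor of the inflammasome, was among the members closest to the edge, and its mean deposited intensity was 138 in air and 140 in smoke.

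The 4 chemosensory or synaptic probes were Olfr156, an olfactory receptor, Vmn2r42, a vomeronasal receptor, Slitrk5 and Sv2a. Their air levels stayed between 4.41 and 5.84, and all 4 overlapped between air and smoke. Olfactory, vomeronasal and Nlrp4 genes belong to large families of similar sequence, as does Fem1al, so the gene behind each of these signals is uncertain. The remaining 11 probes, with 4 that have no gene symbol, were lower by 0.29 to 1.05. They included Igfl3 (ILMN_1242115) at 5.08 to 6.00 in air and 4.40 to 4.67 in smoke, and Leng8, Fem1al, Gm16367, Pdzd3 and Svopl. Among the 19 lists of cell type, circadian, xenobiotic and stress genes, with 197 genes listed, Jchain was the sole member of the 45. Markers of several other cell types differed between air and smoke on the same arrays, and the lists given here were picked after seeing this. Of all tested probes, 14.4% in wild type and 10.2% in the labelled knockout were higher, and 13.4% and 9.82% were lower. Of the smooth muscle and pericyte probes 9 of 10 were higher in smoke in both genotypes, and of the fibroblast probes 13 of 13 in wild type and 4 of 13 in the labelled knockout. Of the T and NK cell probes 7 of 13 were lower in wild type and 3 of 13 in the labelled knockout, and the erythroid median was -2.39 and -1.40, with 3 and 1 of 4 probes lower. Endothelial probes were higher in 10 of 13 in wild type and 2 of 13 in the labelled knockout. Alveolar type 1 probes were higher in 5 of 6 in wild type and 0 of 6 in the labelled knockout, and ciliated probes in 4 and 5 of 8. Xenobiotic metabolism probes were higher in 7 and 4 of 12, with 0 and 1 lower. Of 18 circadian probes 5 and 4 were lower, and 4 and 6 higher. Some lists showed few calls, such as alveolar type 2 with 0 and 2 of 13 lower and 0 higher. The part of cell makeup in the levels of the 45 probes was not tested.

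In the fit across all 16126 probes (limma, Benjamini-Hochberg adjusted p under 0.05), 38 of the 45 were lower in smoke in wild type and 33 in the labelled knockout, where 13.4% and 9.82% of all tested probes were. In both genotypes it was 30, against 6.93%. Those shares follow from the rule and are read no further. Of the 40 probes undetected on all wild-type smoke arrays, 38 had a bound above 1, with a median of 1.31-fold, and 3 had a bound of at least 2-fold. In the labelled knockout it was 27 of 28, with a median of 1.26-fold and 2 bounds of at least 2-fold. With the detection limit of each array as a covariate, 23 passed in wild type and 8 in the labelled knockout, where 7.54% and 2.14% of all probes did. All 45 stayed lower in both genotypes there, with medians of -0.615 and -0.548 against -0.637 and -0.639 without the covariate. The covariate was the limit on the deposited scale, which was higher on the smoke arrays, so it and exposure cannot be fully told apart. On the deposited intensities without normalization 7 and 4 passed, against 2.79% and 1.57%. On that scale 39 and 30 of the 45 were lower, while the median over all tested probes was 0.12 and 0.18 above 0.

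A set of probes chosen in 1 genotype can be measured in arrays that had no part in the choice. On wild-type arrays alone, 55 probes were detected on 3 of 3 air and 0 of 5 smoke arrays. In a fit of the labelled knockout arrays alone, 23 of these 55 (41.8%) were lower in smoke and 0 higher, where 10.7% of all tested probes were lower. Their median difference was -0.40, and 48 of 55 were lower in sign. In the other direction, 27 probes were chosen on labelled knockout arrays, and 13 (48.1%) were lower and 0 higher in wild type, against 10.2% of all tested probes. Their median was -0.54, with 26 of 27 lower in sign. The detection pattern carried over in part: 19 of the 55 were undetected on every labelled knockout smoke array, and 26 were detected on every labelled knockout air array. Of the 27, 19 were undetected on every wild-type smoke array and 10 were detected on every wild-type air array. The choice moved with single air arrays. Without replicate 1 of wild type in air, 153 probes were chosen, and 62 of them were lower in the labelled knockout. The share of all tested probes was not kept for that run, so this count is read no further. The detection limit was higher on smoke arrays in both genotypes, and its part in this result was not tested.

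**Figure D3:**
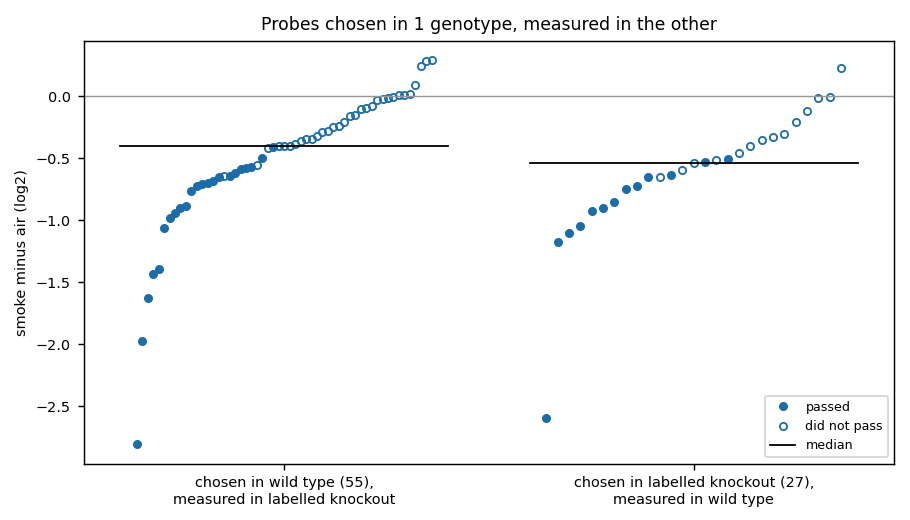
Smoke minus air difference (y axis, log2) of the 55 probes chosen on wild-type arrays and measured on labelled knockout arrays, and of the 27 probes chosen the other way. Each point is 1 probe in order of its difference, filled where the adjusted p was under 0.05, and the lines mark the medians of -0.40 and -0.54.

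Some of the genes are read by other probes as well. Of the 41 genes, 24 had another probe, and 27 such probes of 17 genes were tested. They were not used by the rule but were read on the same arrays, so their calls are a description. On the smoke arrays, 11 of the 41 genes had another probe that was detected on all 10, so these genes were not silent in smoke-exposed lung. For 6 genes no other probe was detected on any array, in air or in smoke: Bmerb1, Csl, Gm16367, Igf2bp3, Slitrk5 and Zfp110. In wild type 12 of the 27 (44.4%) were lower and 1 higher, and in the labelled knockout 9 (33.3%) were lower and 1 higher, with 13.4% and 9.82% of all tested probes lower. With the detection limit as a covariate these counts of lower probes were 7 and 1 of 27, where 7.54% and 2.14% of all tested probes were lower. Without normalization they were 3 and 0, against 2.79% and 1.57% of all tested probes. The 9 probes lower in both genotypes belonged to 7 genes: Abca7, Camk2d, Cux1, Heatr1, Nlrp3, Pogz and Rapgef1.

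Heatr1 was lower on every probe tested for it. Its bright probe ILMN_1214036 read 10.5 to 10.9 in air and 9.98 to 10.4 in smoke, with differences of -0.58 in wild type and -0.61 in the labelled knockout (both SE 0.11). Its probe ILMN_2800256 gave -0.57 and -0.65 (SE 0.15). Both lay near the differences of its dim member probe, -0.63 and -0.58. Heatr1 RNA therefore remained detected by the bright probes on all 16 arrays, at about 1.5-fold less in smoke.

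For Abca7 the bright probe was lower in both genotypes, with ILMN_1221703 at 10.05 to 10.45 in air and 9.47 to 10.02 in smoke, a difference of -0.64 in wild type and -0.54 in the labelled knockout (SE 0.14). Its other tested probe, ILMN_2896639, gave -0.91 in wild type and -0.38 in the labelled knockout (SE 0.21) and did not pass in the latter. Cux1 was split. ILMN_1223862 gave -0.96 and -0.99 (SE 0.19) and ILMN_1229977 gave -0.66 and -1.10 (SE 0.17), while the brightest, ILMN_2652187, read 9.28 on average in air and 9.32 in smoke and did not pass. ILMN_1250346 gave -0.54 and -0.04 (SE 0.20) and did not pass in either genotype. Camk2d was split in the same way: ILMN_3119478 gave -0.71 and -0.57 (SE 0.14), and ILMN_1222123, at 8.67 in air, did not pass. Its probe ILMN_3044195 gave -0.28 in wild type and 0.12 in the labelled knockout (SE 0.19) and passed in neither.

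Several genes had bright probes whose smoke differences did not pass in either genotype. Rbm3 read 11.5 in air and 11.2 in smoke (ILMN_1234453), Pum2 8.98 and 8.81 (ILMN_2607160), Rngtt 7.80 and 7.69 (ILMN_2773302) and Rapgef1 10.3 and 10.1 (ILMN_3140516). Babam2 and Nfix went the other way. The Babam2 probe ILMN_3139800 was higher in the labelled knockout by 0.35 (SE 0.11), and the Nfix probe ILMN_2742599 was higher in wild type by 0.48 (SE 0.12). Which transcript each probe binds is not given in the sources used here.

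**Figure D4:**
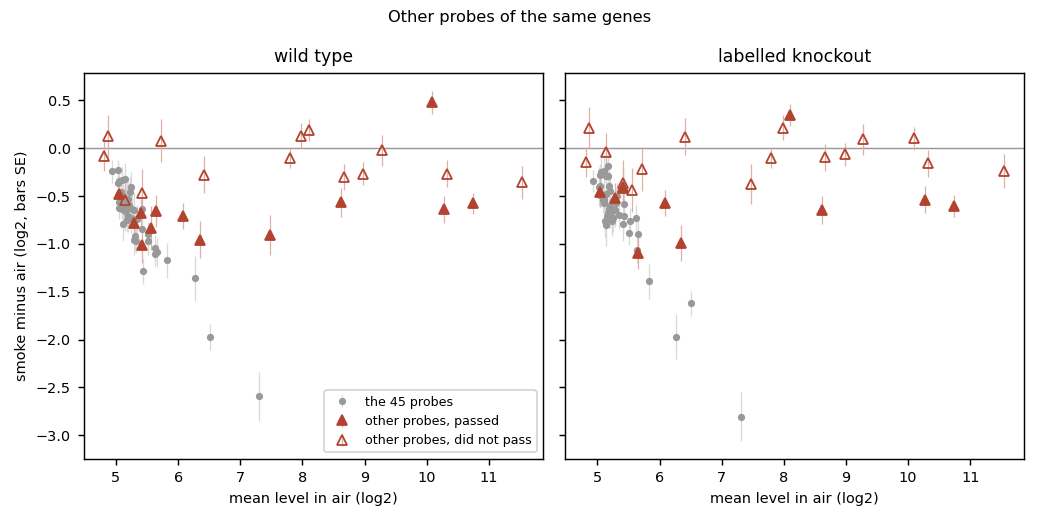
Smoke minus air difference (y axis, log2, bars are SE) against mean level in air (x axis, log2) in wild type (left) and labelled knockout (right). Grey points are the 45 probes, and triangles are the 27 tested other probes of the same genes, filled where the adjusted p was under 0.05. Triangles reach air levels of 11.5 and lie on both sides of 0.

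The rule's edge was soft. The 16 probes just inside it, detected on 5 air and 1 smoke arrays, had a median difference of 0.44, and the 9 detected on 6 and 0 had one of 0.89. Just outside lay 39 probes, with 4 air and 0 smoke arrays or 6 and 2, and a median difference of 0.50. The smallest differences inside were those of Cep70 at 0.40, Nlrp3 at 0.39, Ormdl1 at 0.38, Sv2a at 0.31 and ILMN_2856383 at 0.29. Sv2a (ILMN_2702887), a synaptic vesicle protein, read 4.84 to 5.29 in air and 4.50 to 4.97 in smoke, with a mean deposited intensity of 135 in air and 138 in smoke. Outside, Sfi1 (ILMN_1260218), a centrosome protein, read 5.87 to 7.18 in air and 4.43 to 4.97 in smoke, a difference of 1.98, which among the 45 only Pisd-ps2 exceeded. Dim probes of Actb, cytoplasmic beta-actin, also lay outside with differences of 1.15 and 0.95, while the brightest Actb probe (ILMN_2698799) read 14.07 to 14.47 in air and 14.00 to 14.27 in smoke and did not pass. Another bright Actb probe (ILMN_1377923) gave -1.13 in wild type and -0.77 in the labelled knockout and passed in both. Ncoa2, a coactivator of nuclear receptors, and Clock, a circadian transcription factor, lay outside with differences of 1.16 and 0.85. The bright Clock probe ILMN_2610973 gave -0.0059 in wild type and -0.45 in the labelled knockout, and passed only in the latter. Another Ncoa2 probe (ILMN_1259910) gave 0.13 and -0.08, and another Sfi1 probe (ILMN_1256699) -0.44 and -0.43. Neither of these 2 passed in either genotype.

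The rule did not use the difference between genotypes, but it caps how large that can be, since members had to be detected on nearly all air arrays and undetected on nearly all smoke arrays of both. The genotype values are therefore read only as the range the members show. In air, 0 of the 45 probes passed between labelled knockout and wild type in limma, where 0.273% of all tested probes did, and 9 of the 45 had an unadjusted p under 0.05, against 13.7% of all tested probes. Differences ran from -0.67 to 0.49 with a median of 0.01, and for 44 of 45 the 95% interval lay inside 2-fold either way. Igf2bp3 had the smallest adjusted p at 0.0709 (limma). It was lower by 0.67 log2 units in labelled knockout air, and each of its 3 arrays there lay below each of the 3 in wild type. Next came ILMN_1222380 at -0.45 and Babam2 at -0.40, with adjusted p of 0.20 and 0.25 in limma.

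In smoke, where the members were chosen to lie below the limit in both genotypes, differences ran from -0.17 to 0.21. In limma 0 of the 45 passed and 0 had an unadjusted p under 0.05. Of all tested probes 0.0434% passed and 4.46% had an unadjusted p under 0.05. The selection leaves little room for any other outcome among the 45. The smallest p were those of Camk2d, Sv2a and Pum2, at differences of 0.21, 0.12 and 0.12. The interaction, which asks whether the smoke difference depends on genotype, called 0 of the 45 and 0% of all tested probes in limma. Of the 45, 3 (6.67%) had an unadjusted p under 0.05, against 7.40% of all. They were Igf2bp3 at 0.70 with an adjusted p of 0.53, ILMN_1222380 at 0.47 and Rngtt at 0.55. The same cap applies to the interaction.

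**Figure D5:**
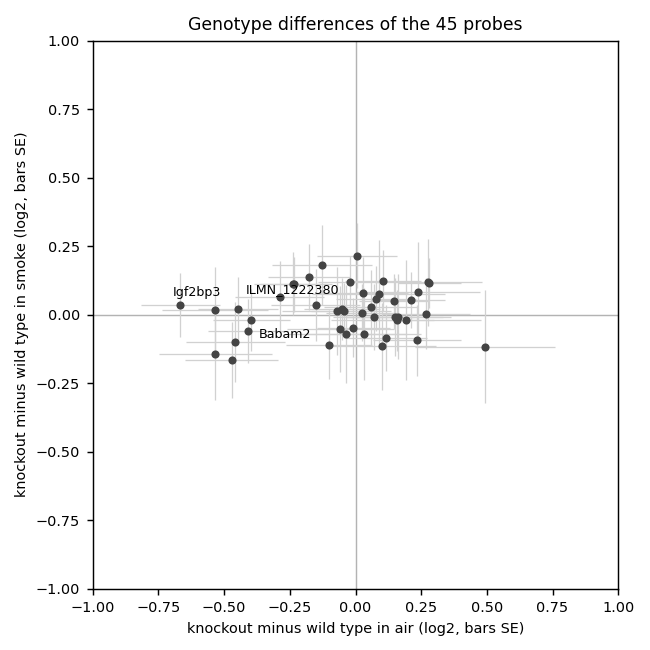
Labelled knockout minus wild type in air (x axis) against the same in smoke (y axis), both log2 with SE bars, for the 45 probes. The 3 with the smallest p in air are named. The spread along the air axis, -0.67 to 0.49, is wider than along the smoke axis, -0.17 to 0.21.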

How the data were processed

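Total RNA from whole-lung homogenates was read on 1-colour Illumina BeadChips, 16 arrays in all. The authors deposited, per the file headers, for every probe on every array an unnormalized intensity (90.9 to 38084) with its detection p-value. They also deposited a value table of linear intensity with the same distribution on every array, used as an alternative. The labels' processing notes name lumi, and nothing more is given in the sources used here. The neqc method (offset 16) took the background from the detection p-values and gave quantile-normalized log2 values, and 4 group means were fitted to all arrays with limma 3.58.1 (R 4.3.3), tested on simulated data first. Probes detected on at least 3 arrays (16126) were tested. P-values are 2-sided and adjusted by Benjamini-Hochberg over all of them. The number of arrays limits the precision.

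Gene symbols came from the platform's annotation, which gives 1 symbol for 23978 of the 25697 probes and does not list 1719. Of the listed probes 23962 matched RefSeq by gene ID, and 0 symbols changed. Members, gene lists and role groups were chosen with earlier results of these data known. Named are the 25 members with the largest difference, the 5 closest to the edge inside, 5 outside it, and the 3 smallest p per genotype comparison. Other members appear by group, and other probes and related genes were added after seeing the data. No 2 of the 120 array pairs were identical. The labels number replicates without naming separate animals, so p-values measure the spread between samples, which may be technical. Chip and hybridization batch were not analysed here.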

Additional observations from a re-analysis of the deposited data

Results flagged for a closer look

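In 82 checks of 1 group's levels for an array far from the rest (groups of 5), 2 values stood out, where chance gives about 4.1 (1 in 20). Ern2 (ILMN_1214511) read 5.01 on replicate 3 of the labelled knockout in smoke, against 4.38 to 4.56 on the other 4 arrays, and was called detected there. Idi2 (ILMN_1216803) read 4.89 on replicate 5 of wild type in smoke, against 4.48 to 4.59, and was not detected. Neither array was far from the rest for the other of these genes.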

How the results depend on the processing

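The size of the smoke difference depended on how background was handled. The median difference of the 45 probes, -0.62, was -0.30 with an offset of 50, -0.17 with no background correction, -0.084 on the authors' normalized values and -0.051 on the deposited intensities. By construction, a larger constant left in dim values shrinks their log2 difference. With median scaling it was -0.68. Median scaling turned the split of all calls from 2166 lower and 2322 higher in wild type to 1527 and 2629, and from 1583 and 1650 to 900 and 2768 in the labelled knockout. Of the 45, the counts lower in wild type and labelled knockout were 23 and 8 with the detection limit as a covariate. Of all tested probes 7.54% and 2.14% were lower there, and the medians of the 45 were -0.615 and -0.548. Without normalization the counts were 7 and 4, against 2.79% and 1.57%. Both settings were added after seeing the data. With the replicate number as a block the counts were 31 and 30, against 9.78% and 7.33%. Deviations of the 20 same-numbered pairs correlated at -0.21 to 0.16, with 5 over 0.1. The 74 pairs with different numbers correlated at -0.20 to 0.19, with 17 over 0.1. Whether same-numbered samples shared a batch cannot be told from these values. Leaving out 1 array gave 28 to 39 and 27 to 36, in runs where the share of all tested probes was not kept. Genotype and interaction counts for the 45 stayed at 0 in every alternative run. Other probes of the same genes lower in wild type numbered 7 with the covariate and 3 without normalization, and in the labelled knockout 1 and 0, and 5 with the block. Leaving out 1 array gave 12 to 13 and 6 to 10. Probes chosen in wild type and lower in the labelled knockout were 14 on the authors' values and 17 to 62 without 1 array, also without that share. The reverse was 8, and 9 to 22, with 22 of 55 chosen without replicate 3 and 21 of 59 without replicate 1 of the labelled knockout in air. The rule took 9 probes at 6 air and 0 smoke arrays, 164 at 4 and 2, 57 at a detection p under 0.01, and 46 to 81 without 1 array, the most without replicate 1 of wild type in air and 69 without replicate 1 of the labelled knockout in air. Of 1612 refitted smoke differences of named probes 1466 kept sign and call, 108 lost and 27 gained the call, and 11 reversed sign, all on deposited intensities. The wild-type values there were 0.0082 for Cep70, 0.0042 for Ormdl1, 0.036 for Sv2a and 0.030 for ILMN_2856383. In the labelled knockout they were 0.0049 for ILMN_1222380, 0.018 for Cep70, 0.093 for Nlrp3, 0.046 for Ormdl1, 0.039 for Sv2a, 0.049 for ILMN_2856383 and 0.10 for Rngtt. The knockout difference in smoke turned to -0.013 for Sv2a and -0.0044 for Pum2. For reversals and lost calls the cause was not tested. A stricter filter left 0 of the 45, so it gave no value. Differences of probes at the detection limit are limited by signal over background.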
